A study of Mus musculus with 7 samples.

Results

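Metallothioneins and zinc transporters hold the zinc of a cell in check, and 10 of their genes were followed here in the cerebral cortex of mice that lack the creatine transporter. The 10 genes were taken by symbol from a table of 24346 genes and comprise the metallothioneins Mt1, Mt2 and Mt3, the exporters of the Slc30 family Slc30a1, Slc30a3, Slc30a4, Slc30a9 and Slc30a10, and the importers of the Slc39 family Slc39a10 and Slc39a14. They were picked with results of these animals already known, and Mt1, Mt2 and Slc30a1 are among the genes that the study's own tables list as changed in the same animals, so none of what follows is independent evidence on those genes. Another 18 genes of the same families were described beside them.

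The study asked what loss of the creatine transporter does to gene expression in the brain. Bulk RNA-seq was done on cortex of 7 male mice at postnatal day 100, 4 hemizygous Slc6a8 knockouts (CrT-/y, numbered 0 to 3) and 3 wild-type littermates (CrT+/y, numbered 1 to 3). All were on the C57BL/6J background and received no treatment. The knockout deletes a run of internal exons of the X-linked gene in the whole body, so that no cell type of the cortex keeps the intact gene. All animals were killed within the same morning hours of the light phase. Values are FPKM, fragments per kilobase of transcript scaled to the mapped reads of the library. Being given per length, they allow only a rough comparison between genes, least of all for very short transcripts such as those of the metallothioneins.

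Zinc is needed as a structural and catalytic part of many proteins, and in the forebrain a pool of it is packed into the synaptic vesicles of glutamatergic neurons. Metallothioneins are small cysteine-rich proteins that bind zinc and copper. Slc30 proteins move zinc out of the cytosol, either across the plasma membrane or into organelles, and Slc39 proteins move metal ions into it. When free zinc rises in a cell, the zinc-sensing factor Mtf1 binds metal response elements in promoters and raises transcription of Mt1, Mt2 and Slc30a1.

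The 3 metallothionein genes lie together on the plus strand of chromosome 8 (GRCm38), within 27721 bp. Mt3 occupies chr8:94152607-94154146, Mt2 chr8:94172664-94173568 and Mt1 chr8:94179082-94180327, so that 5513 bp separate the end of Mt2 from the start of Mt1. Slc30a1 lies on the plus strand at chr1:191906767-191913247. The promoters of Mt1, Mt2 and Slc30a1, the members that the Mtf1 pathway is best known for, are given here from RefSeq (GRCm38.p6), in the direction of the gene, from 250 bases before to 50 bases after the annotated start site. Capitals mark matches on either strand to the core of the metal response element, searched as TGCACNC and TGCGCNC. The windows are chr8:94178839-94179138, chr8:94172368-94172667 and chr1:191906531-191906830, all on the plus strand.
Mt1: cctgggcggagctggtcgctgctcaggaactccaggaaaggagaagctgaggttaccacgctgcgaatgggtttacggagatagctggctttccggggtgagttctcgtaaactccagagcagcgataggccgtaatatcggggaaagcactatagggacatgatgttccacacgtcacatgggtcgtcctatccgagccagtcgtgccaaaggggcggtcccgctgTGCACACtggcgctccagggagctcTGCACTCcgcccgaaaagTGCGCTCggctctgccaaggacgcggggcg
Mt2: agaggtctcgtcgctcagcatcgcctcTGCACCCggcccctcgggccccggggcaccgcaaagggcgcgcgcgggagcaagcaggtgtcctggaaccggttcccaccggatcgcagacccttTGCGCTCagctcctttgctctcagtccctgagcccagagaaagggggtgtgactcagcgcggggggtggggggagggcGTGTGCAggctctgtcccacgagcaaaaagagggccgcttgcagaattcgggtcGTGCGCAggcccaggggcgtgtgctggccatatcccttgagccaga
Slc30a1: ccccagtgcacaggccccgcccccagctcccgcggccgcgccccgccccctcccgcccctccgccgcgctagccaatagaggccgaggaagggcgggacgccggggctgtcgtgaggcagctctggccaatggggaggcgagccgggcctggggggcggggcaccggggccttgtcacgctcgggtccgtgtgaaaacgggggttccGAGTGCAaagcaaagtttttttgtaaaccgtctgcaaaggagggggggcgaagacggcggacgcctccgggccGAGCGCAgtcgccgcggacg
The Mt2 window held 4 matches, the Mt1 window 3 and the Slc30a1 window 2. In Mt1 all 3 were on the gene's strand and began 23 bases before and 2 and 20 bases after the start site used here. The Slc30a1 matches were both on the opposite strand, at 43 bases before and 30 bases after its start site. Mt1 has 3 annotated transcripts, and bases outside these windows were not searched, so the counts need not be complete. Distances hold for the RefSeq start site of each window, which need not be the one most used in cortex. For Mt2 the gene coordinates above begin at 94172664, close to the end of its window at 94172667. Of all 32851 RefSeq promoter windows of this length, 25.7% held at least 1 match, 7.11% at least 2, 1.97% at least 3 and 0.517% at least 4, so the letters are common and a match is a description of sequence, not of binding.

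**Figure D1:**
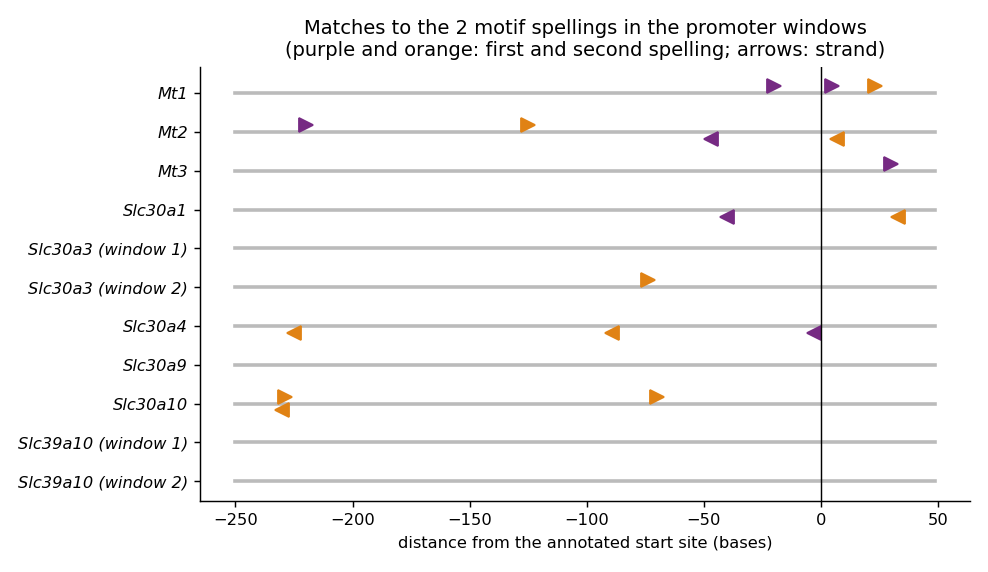
Position of each match to TGCACNC (purple) or TGCGCNC (orange) against the annotated start site, in bases, for the 11 RefSeq windows of 9 genes; arrows above the line point along the gene's strand and those below against it. Mt2 had 4 matches, Mt1, Slc30a4 and Slc30a10 had 3 each, and the Slc30a9 and Slc39a10 windows had none.

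Slc39a14 had no entry in the promoter table. Slc30a4 and Slc30a10 held 3 matches each, of which 2 in Slc30a10 overlap on opposite strands. Mt3 held 1 match, Slc30a3 held 1 in only 1 of its 2 windows, and Slc30a9 and Slc39a10 held none.

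In all 7 animals the metallothioneins had the highest FPKM of the 10 genes. Mt1 averaged 342 FPKM (SD 27.4, n = 7), above 99% of the 12988 genes tested, Mt3 297 FPKM (SD 35.7) and Mt2 160 FPKM (SD 29.1). The ranges of Mt1 and Mt3 overlapped, although Mt1 was the higher in 7 of 7 animals. Among the transporters, Slc39a10 (83.2 FPKM, SD 9.47) and Slc30a3 (74.9 FPKM, SD 8.80) overlapped and kept that order in 6 of 7 animals. Below them, with ranges apart at each step, came Slc30a9 (58.4 FPKM), Slc30a4 (21.6 FPKM), Slc30a1 (11.8 FPKM), Slc39a14 (7.17 FPKM) and Slc30a10 (4.59 FPKM).

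Slc6a8, the gene that carries the deletion, averaged 14.4 FPKM (SD 1.41) over the 4 CrT-/y animals against 30.0 FPKM (SD 2.16) over the 3 CrT+/y animals, for reads on the whole gene. Its log2 fold change was -1.05 (limma adjusted p = 0.00238). The number of genes above 0 FPKM was 17612 to 17821 in CrT-/y and 17207 to 17477 in CrT+/y, and the table of FPKM carries no read depth. Markers of every cell type listed were present, and none of them was at 0 in all animals. Their summed FPKM overlapped between genotypes for 11 of the 12 cell type and region lists. Olfactory bulb markers, at 5.95 to 16.3 FPKM in CrT-/y and 2.91 to 5.25 FPKM in CrT+/y, were the exception, and of these 4 markers only Cdhr1 separated the groups. Single markers were called in 7 of the lists. Of 6 endothelial markers 3 were called lower (Flt1, Pecam1 and Ly6c1), as were the mural marker Rgs5, the astrocyte marker Sox9 and the excitatory neuron marker Neurod6, while Gad1 of inhibitory neurons, Slc6a13 of meningeal fibroblasts and Cdhr1 were called higher. Since this is bulk tissue, fewer cells of a type and less RNA per cell cannot be told apart.

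At the study's cutoff of an adjusted p under 0.1, 3 of the 10 genes were called in limma on log2(FPKM + 0.1). Mt2 and Slc30a1 rose in CrT-/y and Slc39a10 fell. Mt1, which the study lists as changed, was not called in this fit (limma adjusted p = 0.369). The pseudocount, filter and variance trend of the study's own fit were not known, so these calls need not match its lists. Across all tested genes 10.1% were called, 2.90% higher and 7.25% lower in CrT-/y, that is 377 and 941 genes. This split was 528 and 555 genes under quantile normalization and 490 and 527 under median centring, and it turned to 741 higher and 463 lower under upper quartile scaling. The median log2 fold change was 0.05 over the 10 genes and -0.03 over all tested genes. Without CrT+/y animal 3 the number called was 5 of 10, with Mt1 and Mt3 then called higher as well. That fit called 3733 of the 12988 tested genes, 1340 of them higher. Without CrT-/y animal 1, CrT-/y animal 2 or CrT+/y animal 1 the number was 0 of 10, beside 64, 223 and 253 tested genes. The count thus turns on single animals. FPKM of the 2 groups did not overlap for 4 of the 10 genes, against 21.6% of all tested genes.

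**Figure D2:**
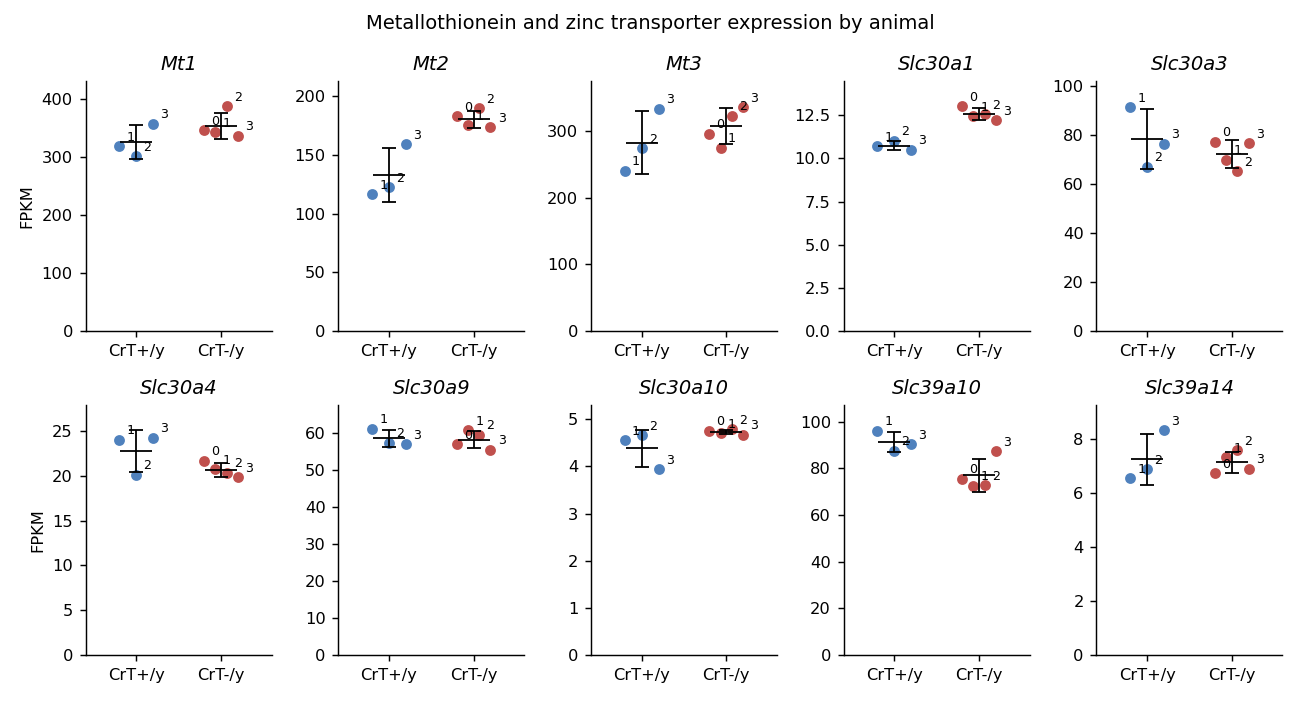
FPKM of each gene in every animal, on axes that start at 0; points carry the animal number, horizontal bars are means and error bars SDs (CrT+/y n = 3, CrT-/y n = 4). Mt2, Slc30a1 and Slc30a10 have all CrT-/y points above all CrT+/y points, and Slc39a10 has all of them below.

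Mt2, an inducible metallothionein made largely by glia in the brain, had the largest difference of the 10 genes. It was at 183, 175, 189 and 173 FPKM in CrT-/y animals 0 to 3 and at 117, 122 and 159 FPKM in CrT+/y animals 1 to 3. The 4 CrT-/y animals lay close together and above all 3 CrT+/y animals, of which animal 3 came nearest. The means were 180 ± 7.34 FPKM (SD, n = 4) and 132.6 ± 22.8 FPKM (SD, n = 3), a fold of 1.37 and a log2 fold change of 0.45 (SE 0.10, 95% interval 0.23 to 0.68, limma adjusted p = 0.0484). By the exact permutation test over the 35 assignments of animals, two-sided, p = 0.0286, the smallest that 4 against 3 animals allow.

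Mt1, its inducible neighbour, was at 347, 343, 388 and 337 FPKM in CrT-/y and at 320, 302 and 358 FPKM in CrT+/y. The groups overlapped, since CrT+/y animal 3 exceeded 3 of the 4 CrT-/y animals. Means of 354 ± 23.0 and 326 ± 28.6 FPKM gave a log2 fold change of 0.12 (95% interval -0.06 to 0.29, limma adjusted p = 0.369), so that its interval takes in 0. Mt3, the metallothionein of brain tissue, which is found in neurons as well as astrocytes, overlapped too. Its values were 296, 275, 323 and 336 FPKM in CrT-/y against 241, 274 and 333 FPKM in CrT+/y, a log2 fold change of 0.13 (95% interval -0.12 to 0.38, limma adjusted p = 0.503).

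Mt2 was then set against Mt1 in the same animal, which is not separate evidence, since the ratio holds the Mt2 values. The ratio of Mt2 to Mt1 FPKM was 0.527, 0.510, 0.488 and 0.514 in CrT-/y and 0.365, 0.406 and 0.444 in CrT+/y, with no overlap (exact permutation p = 0.0286, two-sided; a ratio chosen after the values were seen). The ratio of Mt3 to Mt1 overlapped, at 0.871 ± 0.0860 and 0.864 ± 0.0966 (SD, n = 4 and 3, exact permutation p = 0.943). Summed, the 3 metallothioneins reached 825, 794, 900 and 846 FPKM in CrT-/y and 677, 699 and 850 FPKM in CrT+/y, with CrT+/y animal 3 inside the CrT-/y range (exact permutation p = 0.200).

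The metallothionein transcripts are very short, at 549 bp for Mt1, 511 bp for Mt2 and 536 bp for Mt3, against a median of 3088 bp over the tested genes. The median log2 deviation of the 150 tested genes of at most 600 bp was 0.04, 0.07, 0.06 and 0.15 in CrT-/y and -0.20, -0.23 and 0.15 in CrT+/y. The groups overlapped, since CrT+/y animal 3 was the highest of all 7, while CrT+/y animals 1 and 2 were below every CrT-/y animal. After correction of each animal for transcript length, Mt2 was still called with a log2 fold change of 0.31 (limma adjusted p = 0.0761), while Mt1 and Mt3 turned to -0.02 and -0.01. The transporters' transcripts are 2089 to 5836 bp long.

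**Figure D3:**
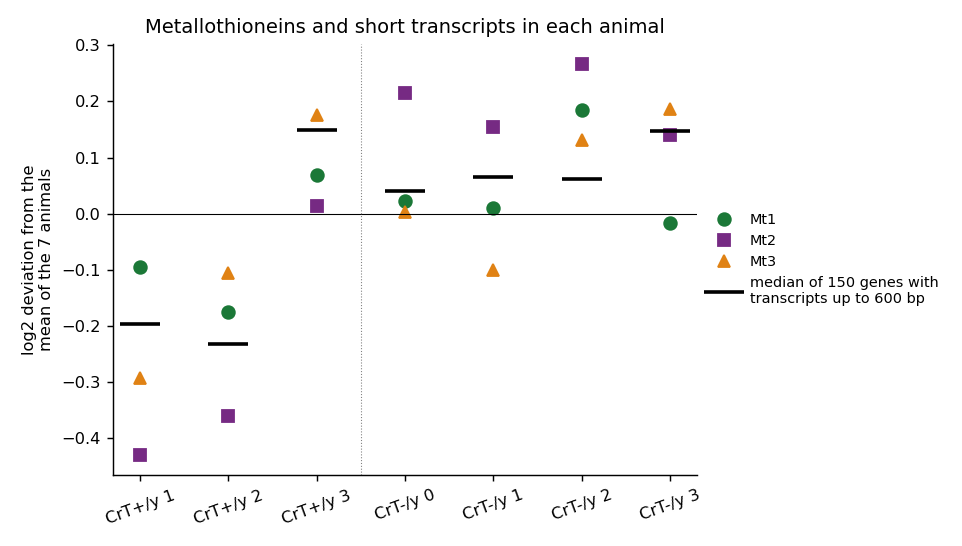
Log2 deviation of Mt1 (circles), Mt2 (squares) and Mt3 (triangles) from the mean of the 7 animals, by animal, with the median of the 150 genes of at most 600 bp as a black bar. The short-transcript median was -0.20 and -0.23 in CrT+/y animals 1 and 2 and 0.04 to 0.15 in the other 5 animals; Mt2 lay above it in CrT-/y animals 0, 1 and 2 and below it in all CrT+/y animals.

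Slc30a1 encodes the zinc exporter of the plasma membrane, and with Mt1 and Mt2 is a standard readout of zinc in the cell. It was at 13.0, 12.5, 12.5 and 12.2 FPKM in CrT-/y and at 10.71, 11.02 and 10.51 FPKM in CrT+/y. The groups were well separated, with a gap larger than the range within either. The means were 12.6 ± 0.353 FPKM (SD, n = 4) and 10.8 ± 0.257 FPKM (SD, n = 3), a fold of 1.17 and a log2 fold change of 0.22 (SE 0.06, 95% interval 0.10 to 0.35, limma adjusted p = 0.0616, exact permutation p = 0.0286). Its transcript is long, at 5244 bp, and the length correction gave 0.26 (limma adjusted p = 0.0399).

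The exporters of internal compartments did not pass the test. Slc30a3, which loads zinc into synaptic vesicles, was at 77.3, 70.01, 65.2 and 76.8 FPKM in CrT-/y and at 91.5, 67.2 and 76.5 FPKM in CrT+/y. Most of these animals shared 1 range, and only CrT+/y animal 1 stood above it. The log2 fold change was -0.11 (95% interval -0.34 to 0.13, limma adjusted p = 0.552). Markers of excitatory neurons, the cells that use Slc30a3, summed to 1574 to 1710 FPKM in CrT-/y and 1589 to 1940 FPKM in CrT+/y. Of these 8 markers 2 were called lower and none higher, and their part in the Slc30a3 value was not tested.

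Slc30a4, an exporter of endosomes and other vesicles, was at 21.7, 20.8, 20.4 and 19.8 FPKM in CrT-/y and 24.0, 20.1 and 24.3 FPKM in CrT+/y, with CrT+/y animal 2 inside the CrT-/y range. Its log2 fold change was -0.14 (95% interval -0.31 to 0.03, limma adjusted p = 0.283). Slc30a9, a zinc transporter of mitochondria, was the steadiest of the 10 genes, at 55.6 to 60.9 FPKM in CrT-/y and 57.0 to 61.3 FPKM in CrT+/y. Its log2 fold change was -0.01 (95% interval -0.13 to 0.12, limma adjusted p = 0.953), the narrowest interval of the 10 genes.

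Slc30a10, which despite its family exports manganese, was at 4.76, 4.70, 4.79 and 4.68 FPKM in CrT-/y and at 4.56, 4.67 and 3.94 FPKM in CrT+/y. The groups did not overlap, but the lowest CrT-/y animal and the highest CrT+/y animal were 4.678 and 4.669 FPKM, and without CrT+/y animal 3 the log2 fold change was 0.04. It was not called (log2 fold change 0.11, 95% interval -0.08 to 0.30, limma adjusted p = 0.438). Its exact permutation p was nevertheless 0.0286, as for Mt2 and Slc30a1, so that p says little of the size of a difference.

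Of the importers, Slc39a10, which brings zinc in across the plasma membrane, fell. It was at 75.5, 72.5, 72.8 and 87.3 FPKM in CrT-/y and at 96.2, 87.5 and 90.3 FPKM in CrT+/y. CrT-/y animals 0 to 2 were clearly lower, while CrT-/y animal 3 nearly met CrT+/y animal 2. The means were 77.0 ± 7.01 FPKM (SD, n = 4) and 91.3 ± 4.42 FPKM (SD, n = 3), a fold of 0.842 and a log2 fold change of -0.25 (SE 0.07, 95% interval -0.42 to -0.08, limma adjusted p = 0.0919, exact permutation p = 0.0571). This call sits just inside the threshold and was lost under 9 of 13 other ways to process all 7 animals, among them each of the 3 rescalings (log2 fold change -0.18 to -0.21). Slc39a14, an importer of zinc, manganese and iron, was at 6.73, 7.31, 7.56 and 6.88 FPKM in CrT-/y and 6.53, 6.86 and 8.31 FPKM in CrT+/y, so that the CrT-/y values lay inside the CrT+/y range. Its log2 fold change was -0.02 (95% interval -0.23 to 0.19, limma adjusted p = 0.935).

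**Figure D4:**
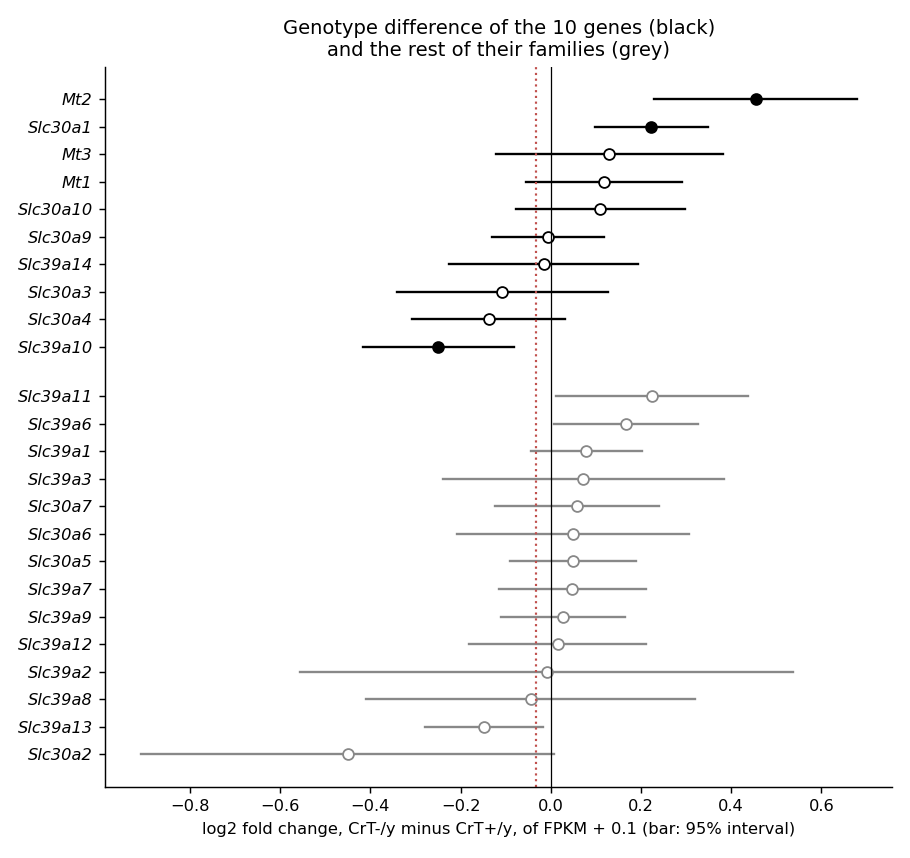
Log2 fold change, CrT-/y minus CrT+/y, of FPKM + 0.1 with 95% intervals for the 10 genes (black) and the 14 tested genes of the rest of their families (grey); filled points have an adjusted p under 0.1 in limma, and the dotted line is the median of all tested genes, -0.03. Mt2, Slc30a1 and Slc39a10 are filled, and no grey point is.

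Set side by side, the exporter Slc30a1 and the importer Slc39a10 went in opposite directions. Their ratio within an animal was 0.173, 0.172, 0.173 and 0.140 in CrT-/y and 0.111, 0.126 and 0.116 in CrT+/y, given as a description since the pair was chosen for its opposite calls.

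Of the 18 further genes of these families, 14 were tested and none was called. Mt4, the metallothionein of squamous epithelium, and Slc30a8, the exporter of insulin granules, were listed at 0 in all 7 animals. The metal importers Slc39a4 and Slc39a5 averaged under 1 FPKM. The 14 tested genes ran from -0.45 to 0.23 on the log2 scale, 10 of them above 0 and 4 below, with a median of 0.05, and in 3 of the 14 the groups did not overlap, a share of the order of the 21.6% of all tested genes. Slc39a13, a zinc transporter of the secretory pathway, had the smallest p. It was at 7.91, 7.70, 7.70 and 7.95 FPKM in CrT-/y and at 8.77, 8.57 and 8.69 FPKM in CrT+/y, tight groups that did not overlap, but its log2 fold change of -0.15 did not pass (limma adjusted p = 0.161).

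Genes around the zinc pathway were read from lists. Of Mtf1 and its targets other than the members, 6 genes, none was called. Mtf1 itself had a log2 fold change of -0.09 (limma adjusted p = 0.599), and the smallest p was that of Csrp1, at -0.18 (limma adjusted p = 0.247). Of the genes that work with Slc30a3 at the vesicle, 8 were tested and none was called, with the smallest p at Ap3m2, a subunit of the adaptor that sorts it (log2 fold change -0.10, limma adjusted p = 0.257).

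Among genes for iron, copper and manganese, 23 were tested, 3 were called higher and 1 lower, beside 2.90% and 7.25% of all tested genes. Slc25a28, the mitochondrial iron importer, was at 12.3, 13.3, 12.8 and 13.5 FPKM in CrT-/y and 10.2, 10.1 and 10.8 FPKM in CrT+/y, with no overlap (log2 fold change 0.32, limma adjusted p = 0.0338). Ccs, the copper chaperone of superoxide dismutase, rose by a log2 fold change of 0.34 (limma adjusted p = 0.0640). Ftl1, the ferritin light chain, was called at 0.32 (limma adjusted p = 0.0989), but CrT+/y animal 3, at 303.4 FPKM, overlapped the CrT-/y range of 303.2 to 321 FPKM. Atp2c1, the calcium and manganese pump of the Golgi, fell by a log2 fold change of 0.22 (limma adjusted p = 0.0724).

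Mt1 and Mt2 respond to glucocorticoids as well as to zinc, and both are made by astrocytes, so these genes were read beside them. Of 14 tested glucocorticoid-responsive genes 2 were called, both higher. Of all tested genes 2.90% were called higher and 10.1% in either direction. Nfkbia, an inhibitor of NF-kappaB, was at 11.3, 12.1, 13.6 and 11.4 FPKM in CrT-/y and 7.27, 7.70 and 9.51 FPKM in CrT+/y (log2 fold change 0.57, limma adjusted p = 0.0334), and the kinase Sgk1 rose by a log2 fold change of 0.43 (limma adjusted p = 0.0742). The list as a whole was split evenly, 7 genes above 0 and 7 below. Of 8 tested reactive astrocyte genes only Hspb1, a small heat shock protein, was called, and it was lower (log2 fold change -0.65, limma adjusted p = 0.0831). That list too was split evenly, 4 genes above 0 and 4 below, with a median log2 fold change of 0.15.

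Astrocyte markers summed to 1182 to 1314 FPKM in CrT-/y and 1295 to 1497 FPKM in CrT+/y. Of these 11 markers 10 were below 0 on the log2 scale and 1, Sox9, was called lower. Of 6 endothelial markers 3 were called lower, and their sums were 137 to 153 FPKM in CrT-/y and 152 to 167 FPKM in CrT+/y. Olfactory bulb markers summed higher in every CrT-/y animal, through Cdhr1, and striatal markers ranged from 105 to 263 FPKM in CrT-/y and 55.1 to 223 FPKM in CrT+/y. The part of these cells and regions in the values of Mt2, Slc30a1 and Slc39a10 was not tested.

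Within genotype, Mt2 varied with many genes. Over the 7 animals the deviations of Mt2 from its genotype means were closest to those of Mthfsd (Pearson r = 0.994), Zmat5 and Cdip1 (r = 0.992 each). These are the highest of 12988 genes over only 7 points, and are given as a description. Mt1 and Mt2 were at r = 0.806, Mt2 and Mt3 at 0.794, Mt1 and Mt3 at 0.552, and Mt2 and Slc30a1 at -0.261. In likeness to Mt2, Mt1 ranked only 910 and Mt3 995 among the tested genes, behind Slc39a14 at rank 300 (r = 0.905). In the other direction, Mt2 and Slc30a10 were at r = -0.872. Mt2 spread more in CrT+/y (SD 22.8 FPKM) than in CrT-/y (SD 7.34 FPKM). CrT+/y animal 3, at 159 FPKM against 117 and 122 FPKM, thus weighs heavily in all r with Mt2. It also had the highest Slc39a14 and the lowest Slc30a10 value of the 7 animals.

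The 3 called genes kept their direction under all 20 other settings, but not their calls. With all 7 animals Mt2 was called under 12 of 13 other settings and Slc30a1 under 11 of 13. When single animals were left out, each of the 3 genes was called in 2 of 7 fits. Mt2 lost its call without CrT-/y animal 1, 2 or 3 or CrT+/y animal 1 or 2 (limma adjusted p = 0.104 to 0.134). Slc30a1 lost it without any one of the CrT-/y animals or CrT+/y animal 1 (0.125 to 0.157), and Slc39a10 without CrT-/y animal 0, 1 or 2 or CrT+/y animal 1 or 2 (0.120 to 0.234). The log2 fold change of Mt2 ranged from 0.28 to 0.59 over all these settings, that of Slc30a1 from 0.21 to 0.29 and that of Slc39a10 from -0.31 to -0.18.

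**Figure D5:**
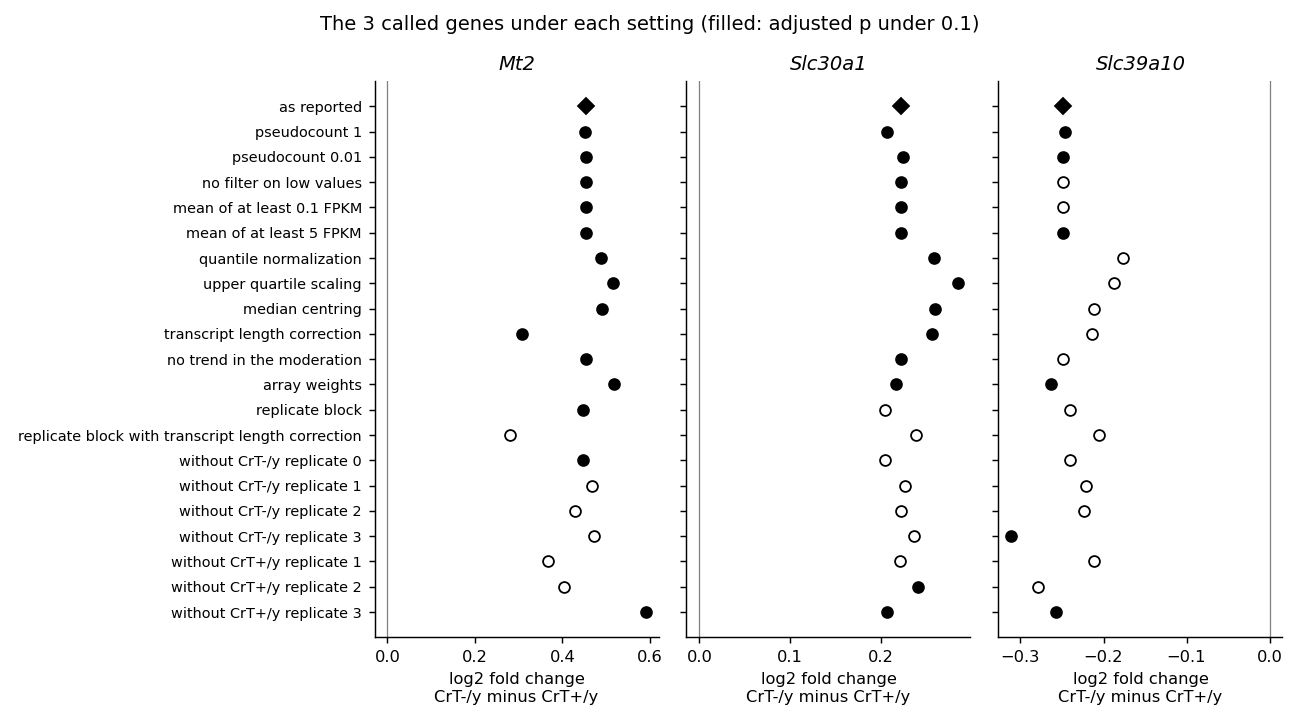
Log2 fold change of Mt2, Slc30a1 and Slc39a10 as reported (diamond) and under 20 other settings (circles), filled where the limma adjusted p was under 0.1. All points of Mt2 and Slc30a1 lie above 0 and all points of Slc39a10 below it, while most fits without 1 animal are open.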

How the data were processed

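RNA was taken from cerebral cortex of 4 CrT-/y and 3 CrT+/y mice with an RNeasy Midi kit, made into libraries with the Universal Plus mRNA-Seq kit and sequenced paired-end on an Illumina NovaSeq. The authors aligned reads to mm10 with the Tuxedo tools and kept unique alignments; Bowtie and Cuffnorm are named in the submitters' processing notes, with no versions. They deposited 1 table of FPKM, already scaled by library size and transcript length, with no counts, so read depth and counting error are unknown. The 24346 genes had no missing values, and 5246 were at 0 in all animals.

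The 12988 genes that averaged 1 FPKM or more entered the test as log2(FPKM + 0.1), so fold changes of low genes are understated. limma 3.58.1 in R 4.3.3 was used with a trend of variance on expression, genotype as the only term, all 7 animals and Benjamini-Hochberg adjustment, with calls at an adjusted p under 0.1. The fit was tested on simulated data. Exact permutation tests used all 35 assignments of animals and were two-sided. Lengths and coordinates came from GENCODE M21 on GRCm38, and 99.4% of tested genes had a length. Promoters came from RefSeq; 9 of the 10 genes matched. Symbols matched directly for 23318 genes, through a synonym for 666, and 362 were not matched.

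The members, lists and tests were chosen with earlier results of these data known. Text names all 10 members, Slc6a8, the called genes of each list (at most the 4 of smallest p) or, where none was called, the gene of smallest p, and the 3 genes most like Mt2 (those most like Mt1 are not reported here); cell type markers were read as lists. Mtf1, Mt4, Slc30a8, Slc39a4, Slc39a5, single cell type markers and comparisons between members were named outside this rule, after their values were seen. Alternatives were other pseudocounts, filters, scalings, a transcript length correction, no variance trend, array weights, a replicate block and leaving out each animal. Same-numbered animals of the genotypes did not deviate together (Pearson r -0.08, 0.05 and -0.05), so numbers were not taken to pair them. So few values cannot exclude a pairing.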

Additional observations from a re-analysis of the deposited data

How the results depend on the processing

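Read depth is not in the table and 7 animals limit the precision. The limma fit used above called 1318 genes at an adjusted p under 0.1, and 730 with no filter on low values. The number lay between 64 (without CrT-/y animal 1) and 3733 (without CrT+/y animal 3) when 1 animal was left out. The number of the 10 genes called, 3 in the fit used above, then lay between 0 and 5. With all 7 animals, an unadjusted limma p under 0.05 was found for 3252 of the 12988 tested genes (25%) and for 3 of the 10. Mt2, Slc30a1 and Slc39a10 kept their direction throughout. Slc39a10 lost its call under quantile normalization, upper quartile scaling, median centring, the transcript length correction, no filter, a filter at 0.1 FPKM, no variance trend and both block fits. None of the other 7 of the 10 genes was called under any setting with all 7 animals; without CrT+/y animal 3, Mt1 (0.185, adjusted p = 0.0915) and Mt3 (0.254, adjusted p = 0.0875) were, and without CrT+/y animal 2, Slc30a4 was (-0.225, adjusted p = 0.0978), all by limma. With the replicate block, CrT-/y animal 0 has no partner and so does not bear on the difference. In that fit 576 genes and 1 of the 10 genes were called (Mt2, log2 fold change 0.447, limma adjusted p = 0.0967). With the block and the length correction together 510 and 0 were called. The labels do not say whether equal numbers mark paired animals, and the correlations of same-numbered animals cannot settle it.

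Genes near 0 changed sign. Slc30a9 was at 0.049 under quantile normalization, 0.055 under upper quartile scaling, 0.030 under median centring, 0.029 after the length correction, 0.003 with the replicate block, 0.039 with block and length correction, and -0.028 to 0.026 when 1 animal was left out. Slc39a14 was at 0.007, 0.046, 0.021, 0.015, 0.011 and 0.043 under the same 6 settings, 0.036 with array weights, and -0.084 to 0.087 when 1 animal was left out. Slc30a3 ran from -0.213 to 0.009 when 1 animal was left out. Mt1 and Mt3 turned to -0.021 and -0.012 after the length correction and to -0.030 and -0.013 with the block added. The cause of these shifts was not tested.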
